A study of Drosophila melanogaster with 16 samples.

Results

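The genes described here are 7 genes of the response to DNA damage and stress in Drosophila melanogaster: Xrp1, p53, tefu, mei-41, Irbp, rpr and W. They were chosen by name, 7 of 13892 genes with a coding sequence (CDS), and each was represented by the gene model with its longest CDS. RNA came from OSS cells, an established culture of somatic cells of the fly ovary, 6 days after a 10 cm plate was electroporated with 500 pmol of siRNA. The groups were siPIWI (against piwi), siPAF1 (against the Paf1 gene), siPIWI_siPAF1 (against both, called the double knockdown here) and siGFP (against GFP, the negative control). Every group was sequenced with strand-specific libraries from a pellet that the labels call NUN, without spelling it out, and from a cytoplasm lysate (cyto). Each of the resulting 8 groups holds a library labelled OSS_146 and another labelled OSS_147, 16 libraries in all. The labels do not say whether these are separate cultures, so the p-values below measure the spread between these libraries, which may be technical.

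In a damaged cell, the kinases ATM and ATR sense broken or stalled DNA, and the Ku protein binds broken ends so that they can be joined. The transcription factor p53 acts downstream of the kinases, and in flies it switches on genes for cell death, among them those of the IAP antagonists that release caspases from their inhibitor. Xrp1, a bZIP transcription factor, is a p53 target after irradiation and is also made in cells that are lost to competition because they make too little of a ribosomal protein.

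The unit of level is CPM, the unique read count on the sense strand of the CDS scaled to a common library size after TMM normalization. Levels are given for library OSS_146 and then OSS_147, a change is a log2 fold change ± SE from edgeR's quasi-likelihood test, and an adjusted p was corrected by Benjamini-Hochberg over all genes of the comparison. A gene was called where the adjusted p was under 0.05. NUN libraries held 2080794 to 4623806 counts and cyto libraries 663876 to 1759084. Counts on genes called over 8-fold higher in NUN than in cyto with siGFP (1385 genes, the 7 genes left out) made up 39.6% to 43.4% of each NUN library and 0.51% to 1.02% of 6 cyto libraries, but 3.69% of siPIWI OSS_146 and 2.33% of double knockdown OSS_146 in cyto. These 2 libraries stand apart from the other cyto libraries. The CDS differences that rest on them are therefore given without them where they are printed below, except for the genes nearest in pattern to a member. The marker tj, a transcription factor of the ovarian soma, averaged 2861 CPM in NUN and 168 CPM in cyto with siGFP. It was the most abundant of 8 ovarian soma markers, of which 7 reached 10 CPM in NUN and 3 in cyto with siGFP. Of the others in cyto, zfh1 averaged 7.963 CPM, br 4.032, Fas3 1.982, bab2 1.333 and sna 0.6495 CPM. In NUN sna averaged 0.1687 CPM. The 8 germ line genes summed to 27.7 CPM in NUN and 14.6 CPM in cyto with siGFP, most of it from rhi (17.1 CPM) and aub (5.37 CPM) in NUN, while vas and zpg averaged 1.30 and 0.0 CPM in NUN and 0.0 CPM each in cyto. rhi reached 47.1 CPM in the double knockdown in NUN (1.39 ± 0.29, adjusted p = 0.284). Muscle markers were not absent: the 6 muscle genes summed to 3167 to 4069 CPM in NUN libraries and 564 to 1438 CPM in cyto libraries, most of it from sls in NUN (3451 CPM with siGFP) and Mlc2 in cyto (1351 CPM with siGFP), with the muscle myosin gene Mhc at 7.75 CPM in NUN siGFP and 1.30 CPM in cyto siGFP. With siGFP the 8 blood cell genes summed to 282.2 CPM in NUN, most of it from srp (160.9 CPM) and Pxn (98.07 CPM). In cyto they summed to 27.96 CPM. The 6 nervous system genes summed to 216.2 CPM in cyto with siGFP, with Syb at 214.9 CPM. In NUN Syb averaged 41.21 CPM with siGFP. In such bulk samples, fewer cells of a type and less RNA per cell cannot be told apart. The siRNA target atms, the Paf1 gene, averaged 8.35 ± 3.38 CPM with siPAF1 in cyto and 169 ± 3.36 CPM with siGFP (SD, n = 2 each). This was a fall of log2 -4.28 ± 0.49 (adjusted p = 5.87e-05), and the double knockdown had one of -3.94 ± 0.47 (adjusted p = 0.000146). The target piwi averaged 64.5 ± 31.0 CPM with siPIWI in cyto and 298 ± 13.8 CPM with siGFP (SD, n = 2 each), a difference of -2.18 ± 0.50 that was not called (adjusted p = 0.303). The siPIWI libraries had 86.4 and 42.6 CPM, so that OSS_146, which stands apart, was the nearer to siGFP. In cyto the 3' untranslated window of piwi had 70 and 57 raw counts with siPIWI and 119 and 55 in the double knockdown. With siGFP it had 1047 and 968. These windows were 956 to 1206 bases long. In NUN, atms differed by -1.67 ± 0.33 with siPAF1 (adjusted p = 0.237) and piwi by -0.49 ± 0.24 with siPIWI (adjusted p = 1.0).

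Xrp1 (chromosome 3R, plus strand, 14740690 to 14752523, in coordinates as deposited, with no build named) has 5 models with coding lengths of 2007 or 1221 bases. In NUN it stood at 1215 and 1443 CPM with siPAF1, above the 457 and 923 CPM with siGFP. Both siPAF1 libraries were higher than both siGFP libraries, and the difference of 0.95 ± 0.34 was not called (adjusted p = 0.424, unadjusted p = 0.021). The siGFP libraries differed from each other by a factor of about the same size as the group difference: without siGFP OSS_146 the difference was 0.53, and without siGFP OSS_147 it was 1.54 (adjusted p = 1.0 and 0.113 from edgeR). Of the alternatives run, the fit with no filter on low counts was the one that called it, with adjusted p = 0.00885 at a difference of 0.95. That fit called 193 of 12376 genes, where the fit with the filter called 0. With siPIWI, Xrp1 stood at 792 and 655 CPM in NUN, within the range of the siGFP libraries (0.07 ± 0.34, adjusted p = 1.0). The double knockdown had 742 and 1268 CPM, with a mean between those of siPAF1 and siGFP and an overlap with both groups (0.54 ± 0.34, adjusted p = 0.948). The double knockdown differed from siPAF1 by -0.40 ± 0.34 (adjusted p = 0.975) and from siPIWI by 0.47 ± 0.34 (adjusted p = 1.0).

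**Figure D1:**
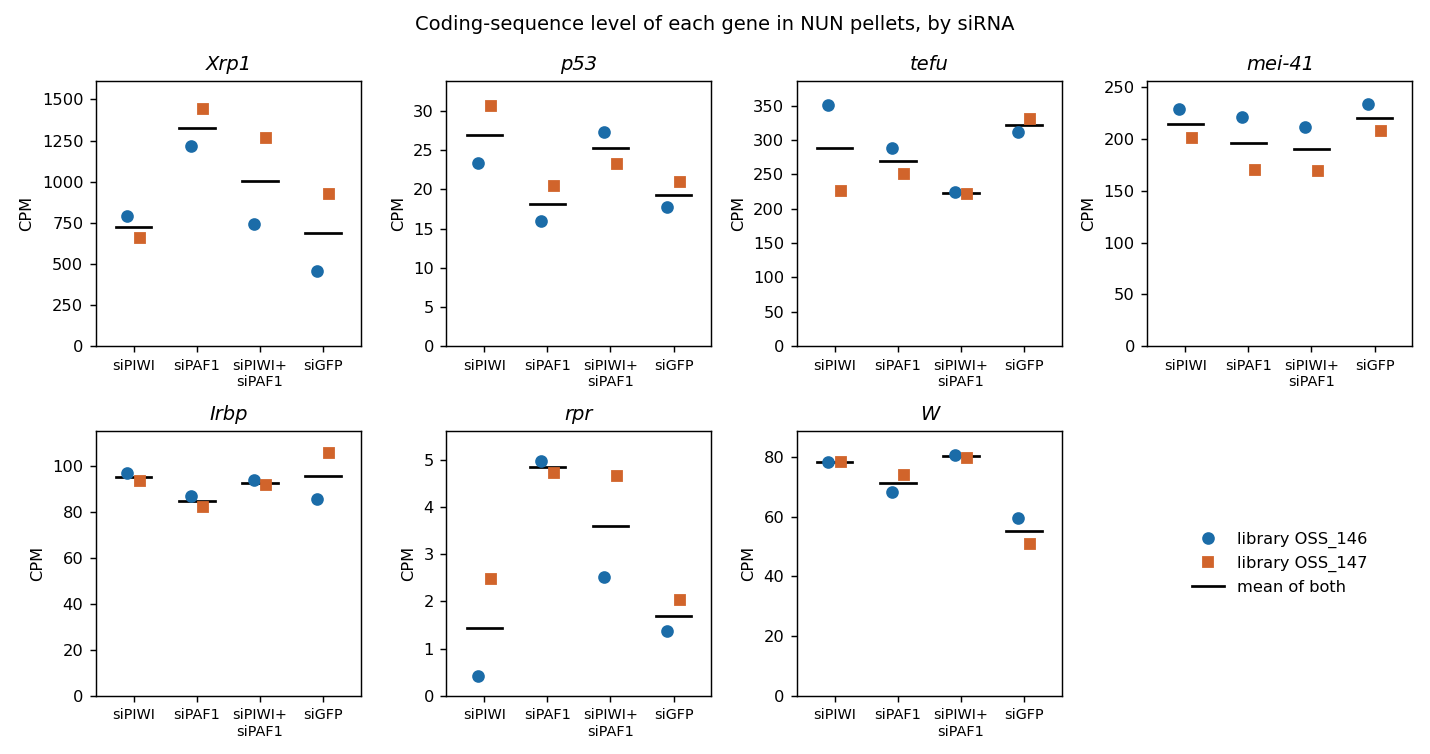
Level of each of the 7 genes in the NUN libraries, in CPM, with 1 panel per gene, the siRNA groups along the horizontal axis and a vertical axis that starts at 0. Circles are libraries OSS_146, squares are libraries OSS_147 and bars are the mean of both. Xrp1 is highest with siPAF1, at 1215 and 1443 CPM, rpr is at or below 4.97 CPM throughout, and W is above its higher siGFP library, 59.5 CPM, in every knockdown library.

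In cyto the siGFP libraries of Xrp1 lay close together. The double knockdown had 131 and 72.3 CPM, siPAF1 had 44.2 and 90.5 CPM and siGFP had 31.4 and 35.1 CPM, so that all 4 libraries with siRNA against the Paf1 gene were above both controls. The difference was 1.63 ± 0.59 for the double knockdown (adjusted p = 0.325) and 1.002 ± 0.59 for siPAF1 (adjusted p = 0.619), neither of them called. Without double knockdown OSS_146, which stands apart as described above, the difference was 1.15 (adjusted p = 0.998). Without double knockdown OSS_147 it was 1.95 (adjusted p = 0.216). A fit on the siGFP and double knockdown libraries alone called Xrp1 at 1.71 (adjusted p = 0.0178), and a block for the library number called it at 1.55 (adjusted p = 0.0489). The siPIWI libraries disagreed, with 148 CPM from 228 counts in OSS_146 and 29.3 CPM from 20 counts in OSS_147. The difference from siGFP, 1.45 ± 0.59 (adjusted p = 0.303), was 2.11 without siPIWI OSS_147 and -0.18 without siPIWI OSS_146. In siPIWI OSS_146 the counts on genes higher in NUN were 3.69% of the library, and their part in this result was not tested.

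The cytoplasmic libraries also allow a count over a longer stretch of Xrp1. Its own strand held 551 counts in the 3' untranslated window of the gene over all cyto libraries, beside 833 on the CDS. When CDS and 3' window were counted together, an alternative chosen after seeing the data, the difference from siGFP was 1.30 ± 0.48 for the double knockdown (adjusted p = 0.357), 1.15 ± 0.48 for siPIWI (adjusted p = 0.417) and 0.93 ± 0.48 for siPAF1 (adjusted p = 0.484). The 3 differences kept their sign and none was called. Those for siPIWI and the double knockdown include the OSS_146 libraries that stand apart, and they were not computed without them. On the CDS alone, the siPIWI difference was -0.18 without siPIWI OSS_146, so the kept sign may rest on that library. The 3' window was 724 bases long in both siGFP libraries and 424 to 1074 bases over the cyto libraries, so the stretch counted differed between groups.

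p53 (chromosome 3R, minus strand, 18875379 to 18879804) encodes the fly homologue of the tumour suppressor and has 4 models with coding lengths of 1488, 1158 and 957 bases. Its levels were low and showed no called change. In NUN the siPIWI libraries had 23.4 and 30.6 CPM, the siPAF1 libraries 15.97 and 20.4 CPM, the double knockdown libraries 27.3 and 23.3 CPM and the siGFP libraries 17.7 and 20.9 CPM. Both groups with siRNA against piwi were above the controls without overlap, by 0.46 ± 0.28 with siPIWI (adjusted p = 1.0) and 0.38 ± 0.29 in the double knockdown (adjusted p = 0.96). In cyto the gene had 2 to 15 counts per library, or 2.93 to 11.9 CPM. All 4 cyto groups overlapped, and the SE of a difference was 0.85 to 0.88, so a 2-fold difference was not detectable at this depth.

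p53 was also the gene with the most reads from the opposite strand. Of 948 unique CDS counts in NUN, 420 (44.3%) lay on the strand opposite to p53, against 4.70% to 6.79% over all CDS counts of a NUN library and at most 0.97% for each of the other 6 genes. Gr94a, a gustatory receptor gene, is annotated on that opposite strand within p53 (18877411 to 18878625). Almost all of them lay outside the shortest p53 model, which ends at 18876952 and had 0 to 3 of them per NUN group, while the longest model had 74 to 172. They amounted to 28.4 and 24.1 CPM with siPAF1 and 12.7 and 15.5 CPM with siGFP. The siPAF1 libraries were the highest 2 of the 8 NUN libraries. In a fit of opposite-strand counts over 3324 genes, chosen after seeing the data, the difference was 1.07 ± 0.39 and was not called (adjusted p = 0.156). Gr94a itself, counted on its own CDS, had 45.4 and 47.9 CPM with siPAF1 and 40.9 and 38.1 CPM with siGFP in NUN (0.24 ± 0.25, adjusted p = 0.704), and 0 to 3 counts per library in cyto. Over the whole Gr94a locus in NUN the difference with siPAF1 was 1.081 ± 0.35 (adjusted p = 0.324). The 3' window of Gr94a had 56 and 394 raw counts with siPAF1 and 84 and 105 in the double knockdown. It had 69 and 13 with siPIWI and 14 and 43 with siGFP. These counts are not scaled for depth, and the lengths of this window were not compared between libraries. Because the libraries are strand-specific, reads of the 2 strands were counted apart, and the p53 values above do not hold these reads.

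tefu (chromosome 3R, minus strand, 11057934 to 11067958, coding length 8304 bases) encodes ATM, the kinase that answers double-strand breaks and guards chromosome ends. In NUN it was lowest in the double knockdown, with 224 and 221 CPM, against 311 and 331 CPM with siGFP. Both double knockdown libraries were below both controls, and the difference of -0.53 ± 0.23 was not called (adjusted p = 0.836, unadjusted p = 0.0446). The siPAF1 libraries, at 288 and 250 CPM, were also both below the controls (-0.25 ± 0.23, adjusted p = 0.665), while the siPIWI libraries, at 351 and 226 CPM, lay on either side of them (-0.15 ± 0.23, adjusted p = 1.0). In cyto tefu had 29.9 and 10.3 CPM with siPIWI and 4.10 and 11.7 CPM with siGFP. The higher of the siPIWI values, from 46 counts, came from the OSS_146 library that stands apart. The difference of 1.40 ± 0.69 (adjusted p = 0.335) was 0.36 without that library (adjusted p = 0.918). The double knockdown had 9.61 and 4.82 CPM and siPAF1 5.05 and 6.96 CPM, with differences of -0.04 ± 0.74 and -0.42 ± 0.77 that were not called (adjusted p = 0.986 and 0.886 from edgeR).

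mei-41 (chromosome X, plus strand, 16285794 to 16293601, coding length 7554 bases) encodes ATR, the kinase of stalled replication and of the meiotic recombination checkpoint. Its NUN levels ran from 169 to 234 CPM over all 8 libraries, and every pair of groups next to each other in the order of means overlapped. The differences from siGFP were -0.04 ± 0.21 with siPIWI, -0.17 ± 0.22 with siPAF1 and -0.22 ± 0.22 in the double knockdown. In cyto siPIWI had 44.8 and 10.3 CPM, the highest and the lowest cyto library of this gene, against 21.9 and 20.8 CPM with siGFP (0.46 ± 0.56, adjusted p = 0.673). Without siPIWI OSS_146 the difference of mei-41 was -1.05 (adjusted p = 0.6). The siPAF1 libraries were at 20.9 CPM each and the double knockdown at 23.4 and 14.5 CPM. For mei-41 as for Xrp1 and tefu, the highest cyto value was in siPIWI OSS_146.

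Irbp (chromosome 3R, plus strand, 7235770 to 7238162, coding length 1896 bases) encodes the Ku70 subunit of the Ku protein. Its levels differed little: 82.2 to 106 CPM over the 8 NUN libraries and 19.1 to 35.2 CPM over the 8 cyto libraries. In NUN siPAF1 had 87.0 and 82.2 CPM, against 85.4 and 106 CPM with siGFP (-0.18 ± 0.20, adjusted p = 0.725). The other NUN differences from siGFP were -0.01 ± 0.20 with siPIWI and -0.05 ± 0.20 in the double knockdown. In cyto the differences from siGFP ran from -0.20 ± 0.48 in the double knockdown to 0.22 ± 0.49 with siPIWI, and every group overlapped siGFP.

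rpr and W (also known as hid) encode the IAP antagonists Reaper and Hid, which bind the caspase inhibitor Diap1 and so start apoptosis. Both lie on chromosome 3L, minus strand, rpr at 18390653 to 18391503 with a coding length of 198 bases and W at 18160843 to 18178737 with one of 1233 bases. rpr was close to the detection limit: siPAF1 had 14 and 18 counts in NUN (4.97 and 4.71 CPM), the double knockdown 6 and 13 (2.52 and 4.65 CPM), siPIWI 2 and 5 (0.417 and 2.47 CPM) and siGFP 3 and 6 (1.36 and 2.02 CPM). The siPAF1 libraries were the highest 2 of the 8, and the difference of 1.46 ± 0.74 was not called (adjusted p = 0.524). The 3' window of rpr, which was 535 bases long in every NUN library, had 14 and 15 counts with siPAF1 and 1 and 7 with siGFP. In cyto rpr had 0 to 3 CDS counts per library and did not enter the test.

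W was above the controls in every knockdown library of NUN. It stood at 78.2 and 78.5 CPM after knockdown of piwi, at 68.1 and 74.1 CPM after that of the Paf1 gene, at 80.7 and 79.8 CPM in the double knockdown and at 59.5 and 51.0 CPM with siGFP. The differences were 0.51 ± 0.20 with siPIWI (adjusted p = 1.0, unadjusted p = 0.0325), 0.37 ± 0.20 with siPAF1 (adjusted p = 0.55) and 0.54 ± 0.20 in the double knockdown (adjusted p = 0.742, unadjusted p = 0.0245). None was called, and the 3 differences share the same 2 siGFP libraries. Counted over the whole locus, introns included, W had 597 and 545 CPM with siPAF1, 560 and 514 CPM in the double knockdown, 467 and 366 CPM with siPIWI and 290 and 374 CPM with siGFP. There the differences were 0.72 ± 0.17 with siPAF1 (adjusted p = 0.25), 0.71 ± 0.17 in the double knockdown (adjusted p = 0.298) and 0.35 ± 0.17 with siPIWI (adjusted p = 1.0), and the siPIWI libraries overlapped the controls.

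**Figure D2:**
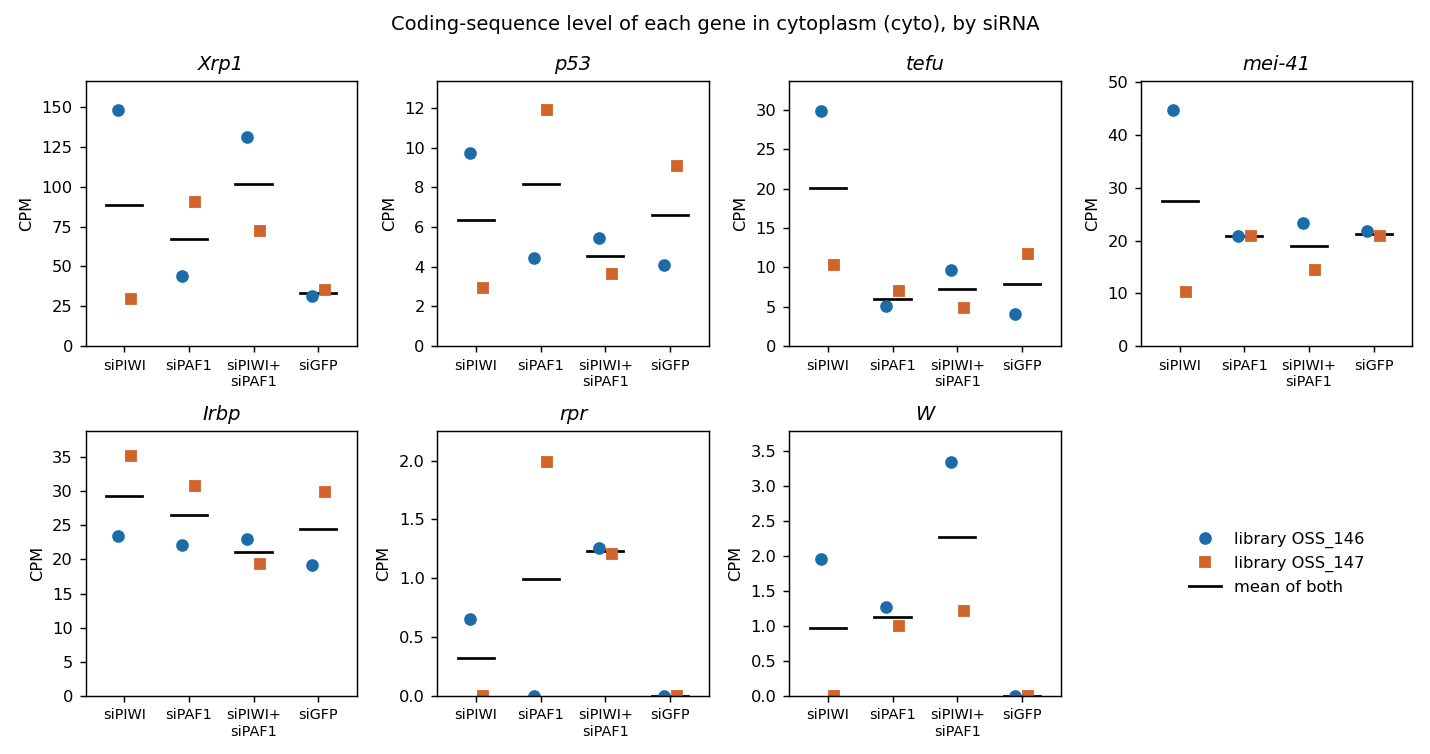
Level of each of the 7 genes in the cyto libraries, in CPM, with 1 panel per gene, the siRNA groups along the horizontal axis and a vertical axis that starts at 0. Circles are libraries OSS_146, squares are libraries OSS_147 and bars are the mean of both. The siPIWI OSS_146 circle is the highest point for Xrp1, tefu and mei-41, at 148, 29.9 and 44.8 CPM, while rpr and W stay at or below 3.34 CPM.

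Over the 7 genes in NUN, 0 were called with siPIWI, where 0.121% of the 8232 genes tested were called, 0 with siPAF1 (0.0% called) and 0 in the double knockdown (0.0121% called). At an unadjusted p under 0.05 the members were W with siPIWI, Xrp1 with siPAF1, and tefu and W in the double knockdown, against 2.17%, 10.2% and 5.89% of all genes. The DESeq2 Wald test called none of them. With siPAF1, 3 of the 7 genes (Xrp1, rpr and W) were above siGFP without overlap and 1 (tefu) was below, where 23.2% and 24.0% of all genes were. In the double knockdown 3 genes (p53, rpr and W) were above and 1 (tefu) below without overlap, where 14.5% and 16.8% of all genes were, and with siPIWI p53 and W were above and 0 were below, where 10.6% and 9.86% of all genes were. The median difference of the 7 genes was -0.01 with siPIWI, -0.08 with siPAF1 and 0.38 in the double knockdown, beside a median that rounds to 0.0 over all genes. In cyto, 5 of the 7 genes passed the filter on low counts and 0 were called in each comparison, where 0.0% of the 5714 genes tested were called with siPIWI, 0.105% with siPAF1 and 0.0175% in the double knockdown. At an unadjusted p under 0.05 in cyto there were 1 member with siPIWI (Xrp1), 0 with siPAF1 and 1 in the double knockdown (Xrp1), against 15.1%, 9.68% and 11.3% of all genes. No member was without overlap with siPIWI in cyto (21.3% of all genes higher, 20.3% lower). Xrp1 was the 1 of the 5 that stood above siGFP without overlap with siPAF1 (26.5% of all genes) and in the double knockdown (24.6%).

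**Figure D3:**
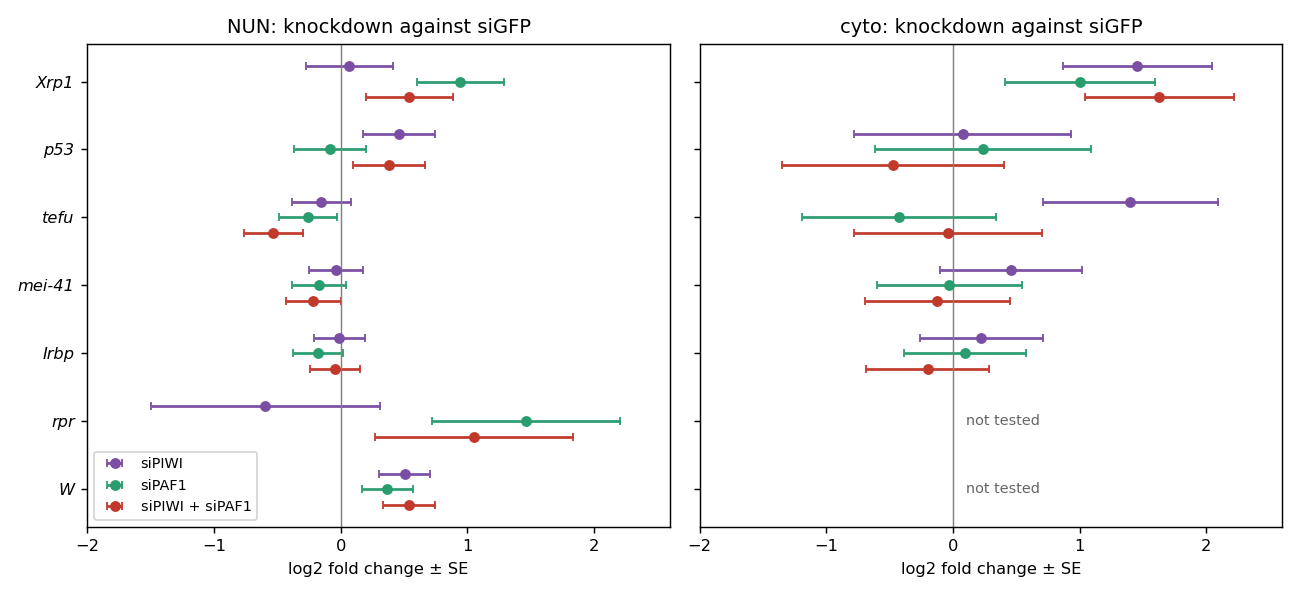
Difference of each knockdown from siGFP for the 7 genes, in NUN on the left and in cyto on the right. The horizontal axis is the log2 fold change, points are edgeR estimates, bars are ± 1 SE and the colours mark siPIWI, siPAF1 and both siRNAs. The cyto estimates for Xrp1 lie between 1.002 and 1.63 with SEs of 0.59, the NUN estimates for mei-41 and Irbp lie between -0.22 and -0.01, and rpr and W were not tested in cyto.

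The double knockdown was also set against each single knockdown and against the sum of both single changes. No gene of the 7 was called in NUN, where 0.0% of all genes were called in each of these comparisons, and none in cyto, where 0.0175% were called against siPIWI and 0.0% in the other 2. At an unadjusted p under 0.05 there were 0 members in the 3 NUN comparisons (3.61%, 2.81% and 0.814% of all genes, in the order given), and in cyto 1 against siPIWI (tefu, 2.61% of all genes), 0 against siPAF1 (0.893%) and 0 against the sum (2.73%). The DESeq2 Wald test also called 0 members. Relative to the sum of single changes, Xrp1 differed by -0.47 ± 0.48 in NUN (adjusted p = 0.999) and by -0.83 ± 0.80 in cyto (adjusted p = 0.969), where it was 0.81 without siPIWI OSS_146. Among the 5 genes tested in cyto, tefu had the largest difference of the double knockdown from siPIWI, -1.44 ± 0.64 (adjusted p = 0.999), which was -0.40 without siPIWI OSS_146 (adjusted p = 0.978). The knockdown changes were compared between NUN and cyto in a fit of all 16 libraries, where 0.0% of 7982 genes were called for each of the 3 siRNA treatments and 0 of the 6 members tested. At an unadjusted p under 0.05 there were tefu with siPIWI, 0 members with siPAF1 and W in the double knockdown, against 9.18%, 5.15% and 5.64% of all genes. The value of tefu, -1.57 ± 0.70, was -0.47 without cyto siPIWI OSS_146. That of W, -6.23 ± 2.69, rests on the 0 counts of cyto siGFP and gives no size, and over the whole locus it was 0.18 (adjusted p = 0.991). The change of Xrp1 in NUN minus that in cyto was -1.36 ± 0.78 with siPIWI, -0.04 ± 0.77 with siPAF1 and -1.08 ± 0.77 in the double knockdown (adjusted p = 0.56, 1.0 and 0.784 from edgeR). For Xrp1 the first of these was 0.30 without cyto siPIWI OSS_146, and the last was -0.55 without cyto double knockdown OSS_146.

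The fractions differed far more than the siRNA groups did. With siGFP, tefu, Xrp1, mei-41 and W were higher in NUN than in cyto, 4 of the 6 members tested, where 66.9% of the 7982 genes tested were called and 36.6% were called higher. The same 4 stood above cyto without overlap, as did 49.3% of all genes. On the scale of this fit of 16 libraries, tefu had 183 and 191 CPM in NUN against 7.09 and 20.1 CPM in cyto, a change of 3.76 ± 0.52 (adjusted p = 1.2e-06). Xrp1 had 269 and 532 CPM in NUN against 54.4 and 60.2 CPM in cyto (2.80 ± 0.59, adjusted p = 0.000212). mei-41 had 137 and 120 CPM in NUN against 37.8 and 35.7 CPM in cyto (1.81 ± 0.46, adjusted p = 0.00137). Irbp had 50.2 and 60.9 CPM in NUN against 33.1 and 51.3 CPM in cyto, and p53 had 10.4 and 12.1 CPM in NUN against 7.09 and 15.6 CPM in cyto. For both genes the fractions overlapped, and the differences of 0.39 ± 0.36 and -0.02 ± 0.59 were not called (adjusted p = 0.333 and 0.976 from edgeR). The median of all genes was 0.55 on the same scale.

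NUN over cyto differences followed coding length over all genes, and the members other than W are set beside genes of their own length here. Of all genes tested, the 432 with a coding length over 5000 bases had a median NUN over cyto difference of 3.57 (quartiles 2.32 and 4.49), and 419 of them were above 0. tefu at 3.76 was near that median and mei-41 at 1.81 was below the lower quartile. The 2148 genes with coding lengths over 2000 and up to 5000 bases had a median of 2.04 (quartiles 0.72 and 3.41), with Xrp1 at 2.80 between the median and the upper quartile. At 2007 bases Xrp1 lies at the lower edge of this class, and its value is above the upper quartile, 2.04, of the next shorter class. The 2875 genes with coding lengths over 1000 and up to 2000 bases had a median of 0.34, with Irbp at 0.39 and p53 at -0.02 close to it. The scaling between fractions moved these values: a filter that kept only genes with at least 10 counts in every library shifted the shared genes by a median of 1.65, and Irbp was then called at 2.04 (adjusted p = 1.27e-05). Counted over the whole locus, where the shared genes shifted by 0.42, Irbp was called at 0.85 (adjusted p = 0.0363). The filter called 2230 of 3021 genes and the whole-locus count 5456 of 8443.

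W, with a coding length of 1233 bases, did not follow this order: it had 131 and 151 counts in NUN and 0 and 0 counts in cyto with siGFP. A floor of 3 counts over both cyto libraries, which covers counting error only, makes its CDS level at least 9.35-fold higher in NUN, or at least 3.22 on the log2 scale, above the upper quartile of 2.04 of genes with coding lengths over 1000 and up to 2000 bases. The fitted change of 9.55 ± 1.43 (adjusted p = 3.93e-06) depends on the prior count and gives no size. Counted over the whole locus, the change was 1.69 and still called (adjusted p = 0.00066). rpr had 9 CDS counts in NUN siGFP, a mean of 0.984 CPM, and 0 in cyto siGFP. Both are under the floor of the cyto libraries, 3.44 CPM, and its CDS did not pass the filter for the test between fractions. Over the whole locus rpr differed by 0.46 ± 1.12 and was not called (edgeR, adjusted p = 0.732).

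**Figure D4:**
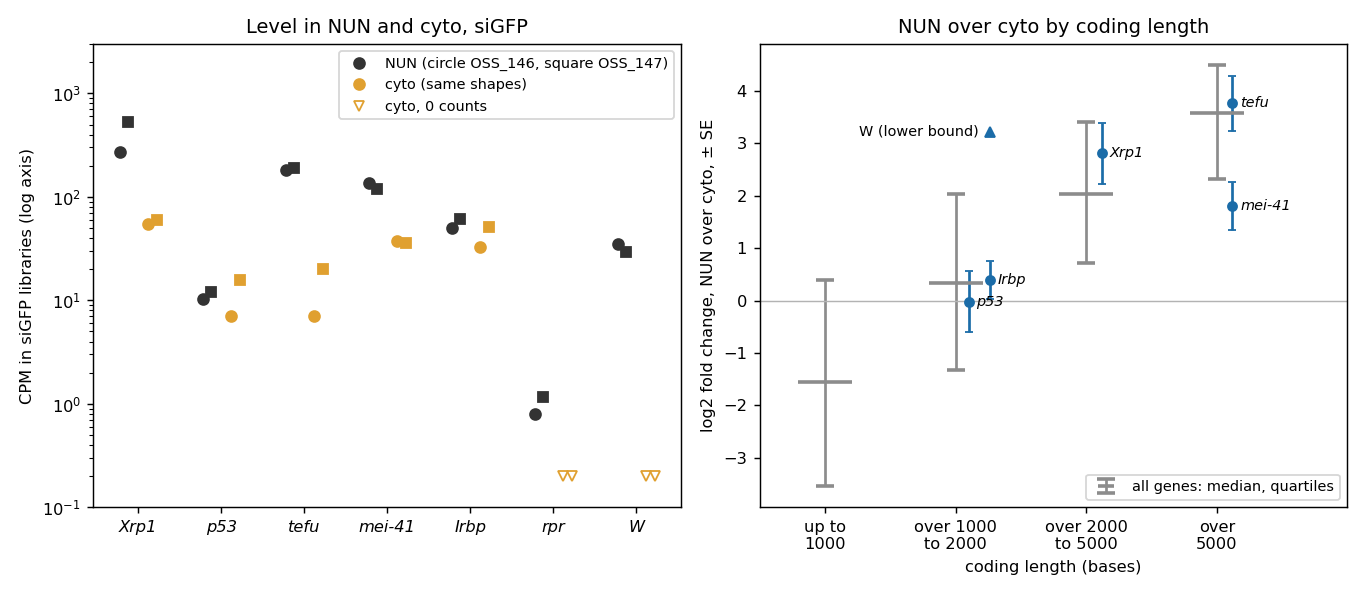
NUN and cyto with siGFP. On the left are the levels of the 7 genes per library in CPM on a log axis, with NUN left of cyto and open triangles for libraries with 0 counts; on the right is the log2 fold change of NUN over cyto ± SE by coding length in bases, with grey bars for the median and quartiles of all genes in each length class. tefu lies near the median of genes with over 5000 coding bases, 3.57, mei-41 lies below their lower quartile, 2.32, and W is drawn at its lower bound of 3.22.

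The reads of W in cyto lay almost all in its 3' window. Over the 8 cyto libraries, 502 of 536 counts at the locus (93.7%) fell in the 3' window, which was 2318 to 2409 bases long, and 15 (2.8%) on the CDS. In NUN 10.4% of 11257 locus counts fell in the 3' window, 15.2% on the CDS and 73.1% outside these and the 5' window. Per base, the cyto 3' window of W held 17.6 times the counts of its CDS, against 0.63 for rpr, 1.92 for Xrp1, 2.05 for p53, 2.75 for Irbp, 4.27 for tefu and 5.94 for mei-41. In NUN the same ratio was 0.13 to 0.47 for the 7 genes, W included at 0.37. The share in the 3' window was higher for W than for 98.0% of genes in cyto, where the median of 6079 genes was 33.5%. Among 162 genes with a 3' window over 2000 bases, the CDS took a median of 9.5% of cyto locus counts (quartiles 4.1% and 19.7%), and 27 of them had a share as low as that of W or lower.

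The 3' window therefore gave W a cyto level that its CDS did not. In the 3' window the double knockdown had 41.8 and 91.6 CPM, siPIWI 46.8 and 104 CPM, siPAF1 27.2 and 56.7 CPM and siGFP 47.8 and 62.4 CPM. All 3 knockdown groups overlapped siGFP. With CDS and 3' window counted together, W passed the filter in cyto and differed from siGFP by 0.63 ± 0.43 with siPIWI (adjusted p = 0.561), 0.48 ± 0.43 in the double knockdown (adjusted p = 0.656) and -0.15 ± 0.44 with siPAF1 (adjusted p = 0.919). No difference was called. Cyto libraries as a whole had more 3' counts, 45.4 to 60.4 per 100 CDS counts, than NUN libraries, with 10.2 to 19.6.

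**Figure D5:**
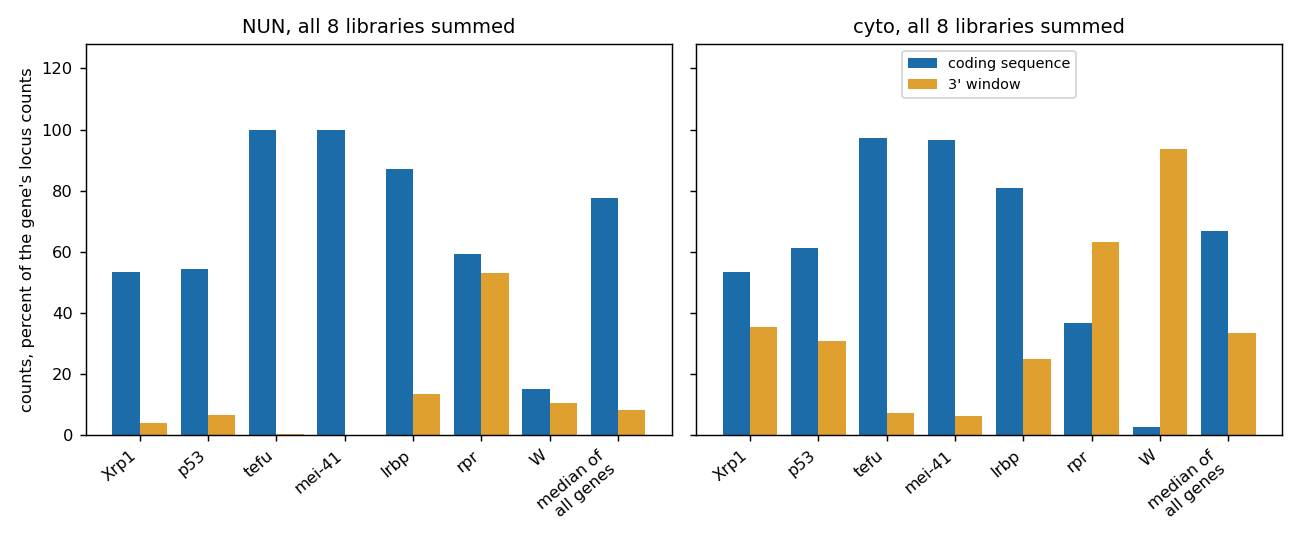
Where the counts of each gene lay: bars give the percent of the gene's own-strand locus counts on the coding sequence (blue) and in the 3' window (yellow), summed over the 8 NUN libraries on the left and the 8 cyto libraries on the right. The last pair of bars is the median over all genes, 77.7% and 8.2% in NUN and 66.8% and 33.5% in cyto. W in cyto is at 2.8% and 93.7%, and a read that spans both regions counts in both.

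Xrp1 and p53 also had NUN reads outside the regions of the longest model counted above. Both genes have other models, and how much of this lay in their exons was not tested. In NUN 32.8% of the Xrp1 locus counts and 35.3% of those of p53 lay outside the CDS and both windows of the longest model, against 4.0% and 7.9% in cyto. For tefu and mei-41 the CDS took 99.8% of the locus counts in NUN and 97.3% and 96.6% in cyto.

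Between genes, levels were compared per kilobase of coding sequence. In NUN siGFP, Xrp1 had 344 CPM per kb, Irbp 50.4, W 44.8, tefu 38.6, mei-41 29.2, p53 13.0 and rpr 8.56. In cyto siGFP the order was Xrp1 with 16.6 CPM per kb, Irbp with 12.9, p53 with 4.43, mei-41 with 2.82 and tefu with 0.951, while rpr and W had 0 CDS counts. On this measure Xrp1 led in both fractions, and tefu was the lowest of the genes with CDS counts in cyto siGFP. The cyto order holds for CDS counts only. Per base, the cyto 3' window held 1.92 times the CDS counts for Xrp1, 2.75 for Irbp, 2.05 for p53, 5.94 for mei-41 and 4.27 for tefu. W had 35 and 48 counts in its 3' window in cyto siGFP.

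The other genes of these pathways were followed as 9 lists that hold 148 further genes, of which 139 passed the filter in NUN and 115 in cyto, counted per list. By edgeR and by the DESeq2 Wald test, 0 were called in a comparison with siGFP in either fraction. At an unadjusted p under 0.05 by edgeR there were 0 with siPIWI, 23 with siPAF1 and 7 in the double knockdown in NUN, and 16, 12 and 11 in cyto, where over all genes the shares were 2.17%, 10.2% and 5.89% in NUN and 15.1%, 9.68% and 11.3% in cyto. The lists were chosen with earlier results of these data known, so their shares beside those of all genes are no independent test. The JNK and regeneration list, genes of the stress kinase cascade, had a median of 0.40 with siPAF1 in NUN with 14 of 18 genes above 0 and 8 at an unadjusted p under 0.05, which 10.2% of all genes passed. Its most abundant genes were kay, the fly Fos, with 1165 and 1242 CPM with siPAF1 and 844 and 922 CPM with siGFP (0.45 ± 0.19, adjusted p = 0.476), and msn, a kinase upstream of JNK (0.24 ± 0.23, adjusted p = 0.682). In cyto this list had a median of 1.25 with siPIWI with 11 of 13 genes above 0, beside 0.18 over all genes and 1.34 over the 5 ovarian soma markers tested. Without siPIWI OSS_146, the library with 3.69% of counts on genes higher in NUN, the median was 0.10 with 7 of 13 genes above 0, beside 0.0 over all genes and -0.12 over the soma markers. Within the list, bsk, the JNK itself, had 41.6 and 77.8 CPM with siPIWI and 21.9 and 27.3 CPM with siGFP (1.25 ± 0.51, adjusted p = 0.303), and its difference was 1.65 without siPIWI OSS_146.

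The list of Xrp1 partners and stress transcription factors had a median of 0.29 with siPAF1 in NUN, with 14 of 16 genes above 0 and 0 at an unadjusted p under 0.05. cnc, the fly Nrf2, had 943 and 946 CPM with siPAF1 and 733 and 801 CPM with siGFP (0.30 ± 0.18, adjusted p = 0.57), and crc, the fly ATF4, differed by 0.00 ± 0.45 with siPAF1 in cyto. The apoptosis list had a median of 0.22 with 12 of 16 genes above 0, and hep, the kinase that activates JNK, differed by 0.36 ± 0.22 (adjusted p = 0.578). th, which encodes Diap1, the target of the Reaper and Hid proteins, had 118 and 119 CPM with siPAF1 and 99.8 and 81.8 CPM with siGFP in cyto (0.39 ± 0.40, adjusted p = 0.776).

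Among the repair lists, the excision and crosslink repair list had a median of -0.28 with siPAF1 in NUN with 6 of 20 genes above 0. In cyto agt, a DNA alkyltransferase, had 206 and 168 CPM with siPAF1 and 513 and 440 CPM with siGFP (-1.35 ± 0.46, adjusted p = 0.352). The end joining list had a median of 0.03 with 4 of 7 genes above 0 in NUN. Parp, which adds poly(ADP-ribose) chains at DNA breaks, had 438 and 360 CPM with siPAF1 and 185 and 282 CPM with siGFP in NUN (0.77 ± 0.26, adjusted p = 0.411), and Ku80, the partner of the Irbp protein in Ku, had 41.1 and 55.7 CPM with siPAF1 and 39.6 and 44.2 CPM with siGFP in cyto (0.20 ± 0.42, adjusted p = 0.905). The damage kinase and checkpoint list (median 0.05, 7 of 12 above 0) and the MRN and recombination list (0.06, 8 of 16) were near the median of all genes with siPAF1 in NUN, with grp, the fly Chk1, at -0.14 ± 0.25 (adjusted p = 0.82) and rad50, a subunit of the MRN complex, at -0.19 ± 0.19 (adjusted p = 0.705). The oxidative and xenobiotic enzyme list had a median of 0.13 with 12 of 20 genes above 0, and GstD1, a glutathione transferase, had 264 and 342 CPM with siPAF1 and 179 and 201 CPM with siGFP (0.67 ± 0.23, adjusted p = 0.416). The unfolded protein response list had a median of 0.06 with 9 of 14 genes above 0, and Hsc70-3, the fly BiP, differed by -0.03 ± 0.20 (adjusted p = 0.965).

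With siGFP the lists split between the fractions. Of 135 list genes tested, 50 were higher in NUN and 42 were higher in cyto, beside 36.6% and 30.3% of all genes. The JNK list had a median NUN over cyto difference of 3.56, with 14 of 17 genes called higher and 1 lower, and the oxidative enzyme list had one of -2.86, with 3 of 20 higher and 13 lower. The Xrp1 partner list had a median of 1.89, with 8 of 15 genes higher and 4 lower.

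Genes with the pattern most like that of a member were looked for by the root mean square (RMS) difference over the 6 log2 changes from siGFP, among 3680 or 3681 genes tested in both fractions whose mean count per library reached 20 in each. For Xrp1 they were Lrch, ctp and fd68A, with RMS differences of 0.165 to 0.188 against a median of 1.11 over all candidates. Lrch had 0.64 with siPAF1 in NUN and 1.48 with siPIWI, 0.77 with siPAF1 and 1.53 in the double knockdown in cyto. For tefu they were dom, trol and dome (0.177 to 0.208, median 0.795), of which dome had 1.32 with siPIWI in cyto. For p53 they were CG6463, CG17141 and wcd (0.147 to 0.197, median 0.542), for mei-41 CG33123, CycK and CG5508 (0.077 to 0.095, median 0.506) and for Irbp CG2091, CG7728 and CG4670 (0.075 to 0.083, median 0.468). These values describe likeness across 6 changes that share their siGFP libraries, and no test was made of them. The cyto changes with siPIWI and in the double knockdown include the OSS_146 libraries that stand apart. Likeness was not computed without those libraries. Without siPIWI OSS_146 the change with siPIWI in cyto was -0.18 for Xrp1 and 0.36 for tefu.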

How the data were processed

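Strand-specific libraries of 16 samples were analysed. Per the labels, a directional kit was used, and per the submitters' processing notes reads were aligned with Bowtie, with no version given. The authors deposited raw read counts per gene model (24995 models in 14229 genes) and region, with no normalization; the deposited normalized columns and lengths in bases are other values, of which only lengths were used. The measure was the unique CDS count in the gene-sense column, which held 95.4% of CDS counts of plus-strand genes and 96.0% of those of minus-strand genes. The genome build is not given in the sources used here. Starts in the files count from 0 and were raised by 1. Windows of the 5' and 3' regions differ in length between libraries, while CDS lengths do not.

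edgeR 4.0.16 in R 4.3.3 (filterByExpr, TMM, robust quasi-likelihood, 1 coefficient per group) was fitted to 8 NUN libraries (8232 genes, biological coefficient of variation 21.2%), 8 cyto libraries (5714 genes, 32%) and all 16 (7982 genes, 25.1%), with the threshold at 0.05. Alternatives were DESeq2 1.42.0 (size factors and Wald test), no filter and a strict filter (at least 10 counts in every library), both strands, whole locus, all alignments, the shortest CDS model, only the compared groups, a block for the library number, and each library left out. Replicates differed by 5.94 to 25.2 times sampling noise (chi-square per degree of freedom), so none was a duplicate. The scripts were tested on simulated counts.

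Named were the 7 genes, both siRNA targets, the list genes called in a comparison with siGFP or otherwise the 2 most abundant per list, the 3 genes nearest in pattern and Gr94a; 1 list gene is not reported here. Of the list names, 165 were found as written, 26 under an older symbol and 2 not at all. The genes and lists were chosen with earlier results of these data known. List gene tests use CPM and the same fits. Sequences were not used here.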

Additional observations from a re-analysis of the deposited data

Results flagged for a closer look

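Counts outside the coding sequence or on the strand opposite to a gene played no part in the main tests. The 8 cases given here are those in which both libraries of a knockdown were above both siGFP libraries, each knockdown library had at least 10 counts and the ratio of mean CPM to siGFP was at least 1.5, among opposite-strand CDS counts and the 3' and 5' windows. In NUN with siPAF1, opposite-strand CDS counts of Xrp1 were 4.1 times the siGFP level, from 46 counts over 2 siPAF1 libraries and 9 over 2 siGFP libraries. The fitted difference of 2.19 ± 0.80 was not called (edgeR, adjusted p = 0.161). The double knockdown had 2 and 1 of these counts and a fitted difference of -1.26 ± 1.12 (edgeR, adjusted p = 0.713), in the other direction. Opposite-strand CDS counts of p53 in NUN were 1.86 times the siGFP level, from 172 counts with siPAF1 and 74 with siGFP. The Xrp1 3' window was at 1.55 times the siGFP level with siPAF1 in NUN, from 94.8 and 98.7 CPM with siPAF1 and 43.2 and 81.7 CPM with siGFP, in windows of 347 bases in these libraries. The rpr 3' window was at 3.16 times the siGFP level with siPAF1 in NUN, from 14 and 15 counts with siPAF1 and 1 and 7 with siGFP. The Xrp1 5' window was at 2.42 times the siGFP level with siPAF1 in NUN, from 786 and 1090 counts with siPAF1 and 124 and 525 with siGFP, in windows of 1317 bases except for 1455 bases in siPAF1 OSS_147. That is the window of the longest model. For the Xrp1 model that starts at 14749792, the NUN 5' window had 9201 raw counts with siPAF1 over 2 libraries and 571 with siGFP. It had 706 with siPIWI and 3590 in the double knockdown. The models between had 1968 to 3273 with siPAF1 and 766 to 1191 with siGFP. The lengths of these other windows were not compared between libraries. The W 5' window was at 2.36 times, from 20 and 35 counts with siPAF1 and 4 and 15 with siGFP, in windows of 565 bases.

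The Irbp 3' window was at 30.7 times (30.72) the siGFP level with siPAF1 in NUN, from 13 and 299 counts with siPAF1 and 0 and 8 with siGFP. The 299 counts are those of OSS_147, for which the window is listed as 2300 bases, against 212 bases in every other library. The gene Ranbp9 begins 81 bases past the end of Irbp on the same strand. The same window in cyto was at 2.22 times the siGFP level with siPIWI, from 14 and 12 counts with siPIWI and 5 and 4 with siGFP, in windows of 212 bases.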

How the results depend on the processing

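A member was read as reversed where both differences were at least 1 SE from 0 with opposite signs. Of 1399 results for single genes under the alternatives, 1390 stayed on their side of the threshold without such a reversal (116 of them had the opposite sign to the reported value, with 1 or both within 1 SE of 0), 6 crossed it (4 of Xrp1, 2 of Irbp) and 3 reversed: mei-41 in cyto, double knockdown against siPIWI (-0.58), ran from -1.15 to 0.93 over the libraries left out (0.93 without siPIWI OSS_146); Xrp1 in cyto against the sum of single changes (-0.83) ran from -1.49 to 0.81 (0.81 without siPIWI OSS_146); and the siPAF1 change of W in NUN against cyto was 0.78 over the whole locus. The causes were not tested.

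Counts of called genes over all genes changed as follows, with comparisons against siGFP in the order siPIWI, siPAF1 and double knockdown. In NUN (10, 0 and 1), the DESeq2 Wald test called 19, 32 and 25 and no filter 38, 193 and 81. The strict filter and both strands called 2 and 19 with siPIWI. Both strands called 4 in the double knockdown, where the shortest CDS model and only the compared groups called 0; the whole locus called 3 with siPAF1 and 6 in the double knockdown. In cyto (0, 6 and 1), the Wald test called 35 with siPAF1 and 42 in the double knockdown, no filter 5, 42 and 21, the strict filter 0 and 0 for siPAF1 and the double knockdown, the whole locus 1, 3 and 5, only the compared groups 159 with siPAF1 and 84 in the double knockdown, and all alignments 14 with siPAF1. For the double knockdown against siPIWI, against siPAF1 and against the sum in NUN (0 each), the Wald test called 16, 5 and 1 and no filter 35, 24 and 5; against siPIWI, both strands called 2 and only the compared groups 7. In cyto against siPIWI (1), no filter and the whole locus called 2 each, and the strict filter and only the compared groups 0; against siPAF1 (0), the whole locus and only the compared groups called 1 each. Between fractions the strict filter called 2230 for siGFP against 5340; the change with siPAF1 had 3 (Wald) and 2 (no filter), and that of the double knockdown 1, 2 and 2 (whole locus), against 0 each.

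With 1 library left out, calls ran from 0 to 8 with siPIWI, and 0 to 2 in the double knockdown, in NUN. In cyto they ran from 0 to 447 with siPIWI (447 without siPIWI OSS_147, 28 without siPIWI OSS_146), 1 to 9 with siPAF1, 1 to 6 in the double knockdown, 0 to 52 for the double knockdown against siPIWI, and 0 to 2 against the sum. A lone library was taken to vary like the others.

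Deviations of same-numbered libraries correlated from -0.31 to 0.65 in NUN and from -0.17 to 0.57 in cyto. The highest were siGFP with the double knockdown in NUN and siPIWI with the double knockdown in cyto. Such mixed values cannot tell whether the library numbers pair the samples, and the main fit has no block. With a replicate block, calls in NUN were 6 with siPIWI, 0 in the double knockdown and 1 for the double knockdown against siPIWI, and in cyto 7, 76 and 73 against siGFP and 1 for the double knockdown against siPAF1. Low counts limit p53, tefu, rpr and W in cyto, where a library had 0 to 46 CDS counts. The lowest cyto library had 7 for mei-41, 14 for Irbp and 20 for Xrp1.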
